A study of Mus musculus with 2 samples.

Results

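The mouse mitochondrial genome carries 37 annotated genes, and all of them were taken here by the rule that the gene symbol starts with mt-. They are 13 mRNAs, 2 ribosomal RNAs (rRNAs) and 22 transfer RNAs (tRNAs), out of 55536 genes in the tables. They were followed in 2 sequencing libraries of the nuclear fraction of mouse bone-marrow-derived macrophages, labelled both as nucleoplasmic RNA and as nucleus. The cells were primary macrophages of strain C57BL/6J. Both libraries belong to 1 group: 12 h of Lipid A at 100 ng/ml, a washout of 12 h, and a further 10 min of Lipid A at 100 ng/ml. Lipid A is the membrane-anchoring portion of bacterial lipopolysaccharide and a ligand of TLR4. The labels state that ribosomal RNA was depleted, and they give 1 µg of starting RNA for biological replicate 1 and 500 ng for biological replicate 2, with a size range of 250 to 400 for both. No untreated, cytoplasmic or whole-cell sample was used here, so the data hold no contrast between conditions. The replicates share a donor identifier and differ in their biosample identifier, and their spread may therefore be partly technical. With 2 libraries no test between them was made.

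Mitochondrial DNA encodes a few core subunits of the respiratory chain, together with the rRNAs and tRNAs that translate them. All other proteins of the organelle, including its RNA polymerase, are encoded in the nucleus and imported. Both strands of the circle are transcribed as long precursors that are cut into single RNAs, largely at the tRNAs that lie between the coding genes. Many stretches of mitochondrial DNA have also been copied into nuclear chromosomes in the past, and a short read from such a stretch can match both places. Mitochondria lie outside the nucleus, and the reads do not show where in a fraction an RNA was.

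Each library was quantified by the authors in 2 ways. The first, called alignment-based here, gives an expected count (an estimated number of reads, which need not be whole) and a TPM per gene from an alignment to the transcriptome. TPM is a level scaled by transcript length and by the library's total, so it can be compared between genes. The second, called read-based here, was derived directly from the reads and an index. The genes of replicate 1 received 24444219 expected counts and those of replicate 2 received 18051097, and the read-based totals were 32762245 and 30438850. All 12 macrophage markers examined were detected, led by Lyz2 at 968 and 953 TPM. Of 19 markers of other cells that a marrow culture can hold, 1 was detected (Pecam1, 1.34 and 1.04 TPM), the list summed to 2.57 and 1.71 TPM, and 9, among them Cd79a, Cd3g, Ly6g and Cpa3, were at 0 in both libraries. All 6 nuclear noncoding RNAs examined were detected and held 17.9% and 16.4% of the counts, most of it on Malat1 and Rn7sk. The 10 mRNAs abundant in the cytoplasm that were examined held 2.29% and 1.86%.

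A run of 7 annotated pseudogenes on the minus strand of chromosome 1 (mm10, 24611535 to 24616197) repeats part of the mitochondrial genome, and it covers most of 6 of the 13 mRNAs. The copies lie side by side in the order Gm28439, Gm10222, Gm28438, Gm28437, Gm10925, Gm28661 and Gm29216, which repeat mt-Nd4, mt-Nd4l, mt-Nd3, mt-Co3, mt-Atp6, mt-Co2 and mt-Co1. Over the aligned stretch, 5 of the 7 copies had 0 mismatches to the mitochondrial transcript. These were Gm28661 (681 of the 684 bases of mt-Co2), Gm10925 (678 of 681 of mt-Atp6), Gm28437 (783 of 784 of mt-Co3), Gm10222 (294 of 297 of mt-Nd4l) and Gm28439 (876 of 1378 of mt-Nd4). The remaining 2 differed at 1 base each. Gm28438 matched 345 of the 348 bases of mt-Nd3 with the substitution T3C, counted from 1 at the 5′ end of the mitochondrial transcript, and Gm29216 matched 483 of the 1545 bases of mt-Co1 with A1066T. These sequences, from the GENCODE M21 transcripts on mm10, are shown because they set what the counts below can separate. The first pair has the differing base in capitals, and the second pair is identical over the 60 bases shown.
mt-Nd3, chrM:9459-9491, plus strand: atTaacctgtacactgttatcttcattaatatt
Gm28438, chr1:24613087-24613119, minus strand: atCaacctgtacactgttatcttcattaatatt
mt-Nd4, chrM:10167-10226, plus strand: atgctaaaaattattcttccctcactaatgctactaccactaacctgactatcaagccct
Gm28439, chr1:24612351-24612410, minus strand: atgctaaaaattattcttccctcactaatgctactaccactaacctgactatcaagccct
A read from within the last pair carries nothing that tells its origin. The 6 mRNAs other than mt-Co1 are copied in this run over most of their length, by 63.6% for mt-Nd4 and 99.0% or more for the rest, and are treated as 1 set below. mt-Co1 is copied over 31.3% of its length, at its 3′ part. It is kept with the 6 mRNAs without an annotated copy of at least 200 aligned bases in this run, making 7. Of these, mt-Atp8 shares its last 43 bases with mt-Atp6, which Gm10925 repeats over 678 of 681 bases. mt-Atp8 also lies between mt-Co2 and mt-Atp6, whose copies Gm28661 (from 24614885) and Gm10925 (to 24614651) are neighbours in the run. Sequence between the annotated copies was not searched, so mt-Atp8 cannot be called uncopied. Reads from the copied 3′ part of mt-Co1 also match Gm29216, which received 6.60 and 19.4 expected counts. Older copies of at least 200 aligned bases and 90% identity existed for several of these 7, such as Gm13340 (97.61% identical to mt-Co1), but drew at most 36.2 expected counts in either library.

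All 13 mRNAs were detected in both libraries, that is, at 1 TPM and 10 counts or more. The 37 genes held 2.71% of the expected counts in replicate 1 (exact 95% binomial interval 2.703 to 2.716, which covers counting error only) and 3.54% in replicate 2 (3.530 to 3.548). The mRNAs made up almost all of it, with 2.59% and 3.48% (3.03% ± 0.629, SD, n = 2), and the read-based tables gave them 2.34% and 3.13%. The rRNAs held 0.123% and 0.0637%. The tRNAs held 0 counts in the alignment-based tables and 0.00412% and 0.00489% in the read-based ones. In both quantifications the mRNA share was higher in replicate 2 and the rRNA share higher in replicate 1. The 7 chromosome 1 copies took another 0.524% and 0.856% of expected counts, so mRNAs and copies together reached 3.11% and 4.33%.

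mt-Co1, the catalytic subunit of cytochrome c oxidase (complex IV; chromosome M, 5328 to 6872, plus strand), was the most counted mitochondrial gene. It had 361911 expected counts in replicate 1 and 279616 in replicate 2, which is 1.48% and 1.55% of each library. Its level was 6864 and 7613 TPM (7238 ± 530, SD, n = 2), and no nuclear protein-coding gene had a higher TPM in either library. It carried 57.2% of the mitochondrial mRNA counts in replicate 1 and 44.6% in replicate 2. The read-based tables gave 52.0% and 40.1%. In TPM terms its part of the mRNA sum was 35.9% and 23.1%. The median of the 9430 detected nuclear protein-coding genes was 7.29 and 8.54 TPM.

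The complex I subunits without an exact copy spanned a wide range of levels. mt-Nd5 (11742 to 13565, plus strand), a large membrane subunit of the proton-pumping arm, was at 1460 and 2663 TPM from 93154 and 118414 counts. mt-Nd1 (2751 to 3707), at the junction with the peripheral arm, was at 943 and 2348 TPM from 27729 and 47936 counts. mt-Nd2 (3914 to 4951), another membrane subunit, was at 422 and 1252 TPM from 13761 and 28367 counts, the lowest level in both libraries of the 7 mRNAs outside the set copied on chromosome 1. mt-Cytb (14145 to 15288), the only mitochondrially encoded subunit of complex III, was at 936 and 1975 TPM from 34465 and 50569 counts. The ranges of mt-Nd5, mt-Nd1 and mt-Cytb over the replicates overlapped each other. The range of mt-Nd2 overlapped those of mt-Nd1 and mt-Cytb but not that of mt-Nd5, while mt-Co1 stayed above all 4 in both libraries. In the read-based tables, whose TPM is on a scale of its own, the order mt-Co1, mt-Nd5, mt-Nd1, mt-Cytb, mt-Nd2 was the same, at 2394, 512, 331, 324 and 147 TPM in replicate 1 and at 3702, 1301, 1086, 945 and 566 TPM in replicate 2.

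**Figure D1:**
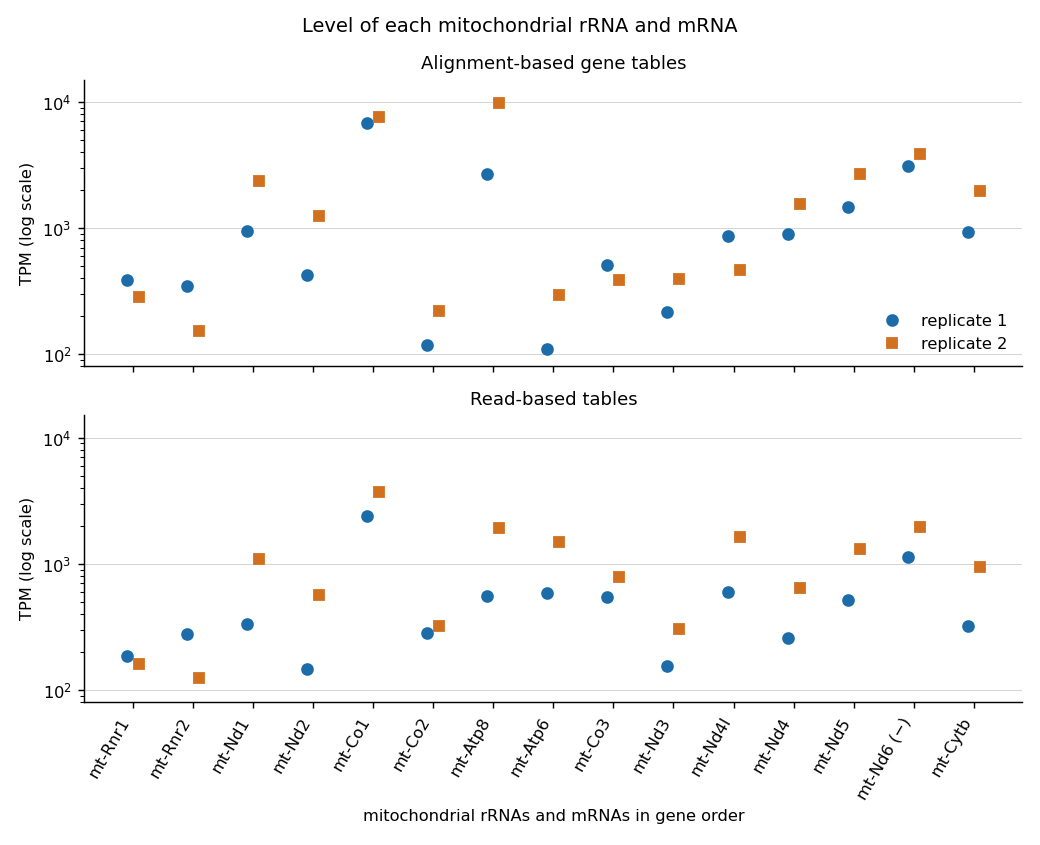
TPM on a log scale (y axis) of the 2 rRNAs and 13 mRNAs in gene order (x axis) for replicate 1 (circles) and replicate 2 (squares), with the alignment-based values above and the read-based values below; (−) marks the gene on the minus strand. mt-Co1 is at 6864 and 7613 TPM in the upper panel, mt-Atp8 and mt-Atp6 stand far apart there and close together in the lower panel, and both rRNAs are lower in replicate 2 in both panels.

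The levels of 6 mRNAs depended on which quantification was read. mt-Co2, the complex IV subunit that receives electrons from cytochrome c (7013 to 7696), had 2208 and 2810 expected counts, while its copy Gm28661 had 53641 and 40494. The copy thus held 96.0% and 93.5% of the pair's expected counts and 73.5% and 79.5% of its read-based counts. mt-Atp6, the proton channel subunit of ATP synthase (complex V; 7927 to 8607), had 2048 and 3761 expected counts against 29377 and 36095 on Gm10925. Its read-based counts were 33624 and 56477, with 1685 and 0.254 on the copy. The same pair of sequences was therefore assigned almost entirely to the copy in 1 quantification and almost entirely to the mitochondrial gene in the other.

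mt-Co3, the third core subunit of complex IV (8607 to 9390), had 11587 and 6015 expected counts, with 70.3% and 78.5% of the pair on Gm28437, against 9.34% and 7.43% read-based. mt-Nd3, a short complex I subunit (9459 to 9806), had 1177 and 1417 expected counts, and its copy Gm28438 held 50.5% of the pair in both libraries, against 0% and 0.801% read-based. mt-Nd4l, a further short complex I subunit (9877 to 10173), had 3096 expected counts in replicate 1 and 1077 in replicate 2, because the part assigned to Gm10222 was 49.1% in the first and 87.7% in the second; the read-based part was 0% in both. mt-Nd4, a complex I membrane subunit (10167 to 11544), had 41280 and 50058 expected counts, with 24.5% and 48.4% of the pair on Gm28439, and here the read-based part on the copy was higher, 39.2% and 55.9%. Gm28439 covers 63.6% of mt-Nd4, so the gene also holds bases that the copy lacks.

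The authors' posterior SD, the uncertainty of a count from assigning reads to targets within the alignment-based quantification, set these 6 mRNAs apart. It was 0.596% to 23.8% of the posterior mean in replicate 1 and 0.563% to 25.9% in replicate 2. For the other 7 mRNAs it was at most 0.00200% and 0.00211%. Only annotated targets enter it, so a copy that is not annotated, as may exist for mt-Atp8, would not raise it. The posterior mean could also lie far from the expected count: for mt-Co2 in replicate 1 it was 5987 with an SD of 1424, against an expected count of 2208. The posterior SD does not cover the difference between the quantifications. For mt-Nd4l in replicate 2 the posterior mean was 1082 with an SD of 175, while the read-based count was 15553.

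**Figure D2:**
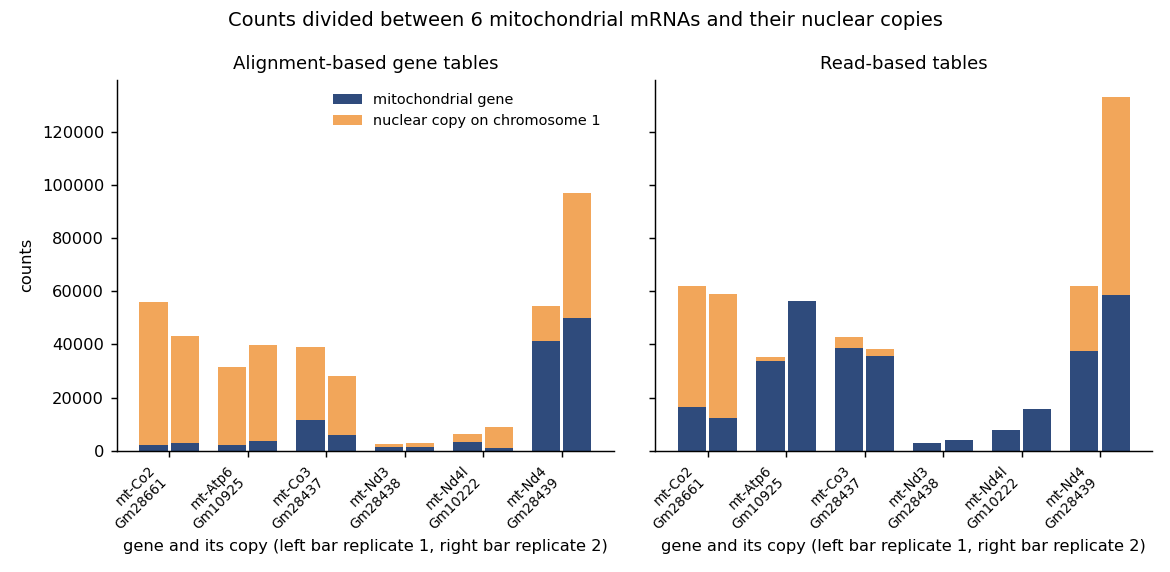
Counts (y axis, from 0) of 6 mitochondrial mRNAs (dark) stacked with their copies on chromosome 1 (light), with the left bar of each pair for replicate 1 and the right bar for replicate 2, alignment-based on the left and read-based on the right. The division of a stack can differ far more between the panels than its height, as for mt-Atp6, where the copy holds 93.5% and 90.6% in the left panel and 4.77% and 0.000450% in the right.

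Adding each copy to its gene brought the quantifications close together. With each quantification scaled to its own total over the 55450 genes that both list, the read-based count of mt-Atp6 alone was 3.61 (log2) above the alignment-based count in replicate 1 and 3.15 above it in replicate 2. For mt-Co2 alone the differences were 2.48 and 1.35, for mt-Co3 1.31 and 1.81, and for mt-Nd4l 0.90 and 3.10. As gene plus copy, all 6 lay between −0.31 and 0.08 in both libraries. The 7 others lay between −0.38 and −0.04. Read gene by gene and averaged over the libraries, 4 of the 13 mRNAs were over 2-fold higher in the read-based tables and 0 over 2-fold lower, where 36.9% and 0.455% of all 22190 genes compared were. The median difference was −0.19 over the mRNAs and 0.27 over all genes. As gene plus copy, 0 of the 13 were more than 2-fold apart.

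Short and overlapping reading frames limited the levels further. mt-Atp8, the small ATP synthase subunit that is translated from the same RNA as mt-Atp6 (7766 to 7969), shares its last 43 bases with mt-Atp6 in another frame. mt-Nd4l shares its last 7 bases with mt-Nd4. Both joins are printed because reads across them belong to 2 genes; capitals mark the start codon of the downstream gene within the end of the upstream one.
mt-Atp8 end, chrM:7907-7969, plus strand: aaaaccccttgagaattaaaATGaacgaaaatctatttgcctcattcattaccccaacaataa
mt-Nd4l end, chrM:10147-10173, plus strand: caaaatctcaacctactacaATGctaa
mt-Atp8 had 2613 and 5240 expected counts. With 204 bases it is shorter than the labelled size range, and the authors' effective length (the number of positions where a fragment could start) was 24.5 in replicate 1 and 19.1 in replicate 2. Its TPM of 2684 and 9865 is its count divided by that small length, and in replicate 2 it exceeded the TPM of mt-Co1. Read-based, with effective lengths of 49.0 and 57.3, it was at 552 and 1909 TPM. The ratio of mt-Atp8 to mt-Atp6 TPM was 24.2 and 33.5 in the alignment-based tables and 0.942 and 1.28 in the read-based ones. The ratio of mt-Nd4l to mt-Nd4 was 0.968 and 0.300, against 2.32 and 2.51 read-based. With genes read alone, neither of these overlapping pairs had a level ratio that held across the quantifications. With the TPM scaled up to gene plus copy, mt-Nd4l was at 1704 and 3799 and mt-Nd4 at 1185 and 3020. The read-based values were 601 and 1627 for mt-Nd4l and 426 and 1470 for mt-Nd4, so mt-Nd4l was the higher in both. mt-Atp6 with its copy was at 1704 and 3124, nearer to mt-Atp8 than mt-Atp6 alone. The highest mRNA TPM was 61.8 times the lowest in replicate 1 and 45.1 times in replicate 2, and with copies added 16.3 and 12.4 times.

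The mRNAs differed between the replicates by subunit. Ratios are replicate 2 over replicate 1 on the log2 scale, after edgeR's TMM scaling with 0.5 added to each count, and ratios for single genes have no replicate check. mt-Nd2 was at 1.32, mt-Atp8 at 1.28, mt-Atp6 at 1.15, mt-Nd1 at 1.06, mt-Cytb at 0.83 and mt-Nd5 at 0.62. mt-Co1 was at −0.10 and mt-Nd6, the complex I subunit on the minus strand, at 0.06. Over all 13 the median was 0.62, with 10 above 0, where the median of 11741 nuclear protein-coding genes was 0.01. Past 2-fold upwards were 4 of 13 and downwards 1 of 13 (mt-Nd4l), where 3.08% and 5.40% of all 15439 genes that averaged 10 counts or more were. In the read-based tables the median was 0.57, with 10 above 0, 2 more than 2-fold higher and 0 lower, where 5.30% and 4.89% of 24074 genes were.

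For the 6 mRNAs copied on chromosome 1 over most of their length, the ratio of the gene alone was that of an assigned part. mt-Nd4l alone was at −1.25 in the alignment-based tables and at 0.93 in the read-based ones, and as gene plus Gm10222 it was at 0.80 and 0.93. mt-Co2 alone was at 0.62 and −0.53, and with Gm28661 at −0.09 and −0.15. mt-Co3 alone was at −0.67 and −0.20, and with Gm28437 at −0.21 and −0.23. Read alone, mt-Nd4l and mt-Co2 changed sign between the quantifications. With their copies, none of these 3 genes did. mt-Atp6 with Gm10925 was at 0.62 and 0.60, mt-Nd3 with Gm28438 at 0.54 and 0.46, and mt-Nd4 with Gm28439 at 1.10 and 1.02. For mt-Nd4 the sum was further from 0 than the gene alone (0.55 and 0.56), as Gm28439 itself was at 2.09 and 1.54.

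Read as gene plus copy, the alignment-based ratios of complex IV lay lower than those of the other complexes. All 3 complex IV subunits, mt-Co1, mt-Co2 and mt-Co3, lay between −0.21 and −0.09, and between −0.05 and 0.07 with library totals alone and between 0.05 and 0.16 in TPM, where the median of the nuclear protein-coding genes was 0.17 and 0.24. They thus lay below that median under each of these scalings, while their sign depended on the scaling. Of the 7 complex I subunits, 6 lay between 0.54 and 1.32, and mt-Nd6 was at 0.06. mt-Cytb of complex III was at 0.83, and the complex V subunits mt-Atp6 and mt-Atp8 were at 0.62 and 1.28. mt-Co2 and mt-Co3, with mt-Atp8 and mt-Atp6 between them in the genome, thus lay lower than these neighbours in both quantifications. The median of the 13 was 0.62, with a range of −0.21 to 1.32 and 10 above 0. Past 2-fold upwards were 4, where 3.08% of all genes, without copies added, were. They were not the same 4 as for genes alone, since mt-Nd4 (1.10) stood in place of mt-Atp6 (0.62). Whether the reads assigned to the copies came from mitochondrial or nuclear RNA was not tested. A sum is therefore not necessarily the level of the mitochondrial mRNA. mt-Nd4, which has bases outside its copy, was at 0.55 alone. The grouping by complex was seen after the values were known, and it describes these 2 libraries.

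**Figure D3:**
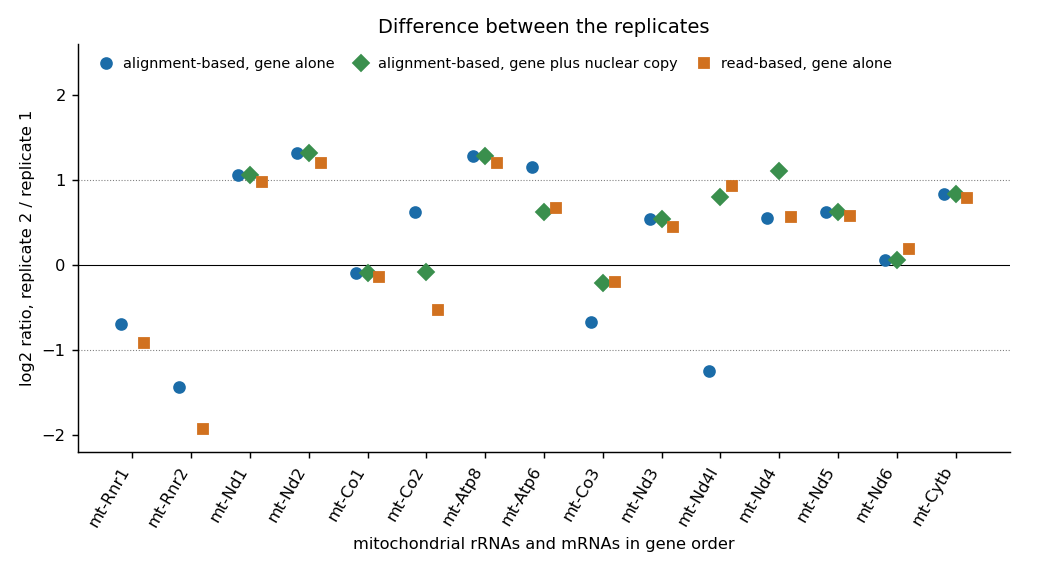
Log2 ratio of replicate 2 over replicate 1 (y axis) for the rRNAs and mRNAs in gene order (x axis), for the alignment-based count of the gene alone (circles), the alignment-based count of gene plus nuclear copy (diamonds, mRNAs only) and the read-based count of the gene alone (squares); dotted lines mark 2-fold. mt-Nd4l moves from −1.25 alone to 0.80 with its copy, the 3 mt-Co genes lie at −0.21 to −0.09 as diamonds, and both rRNAs lie at −0.70 or lower in each quantification.

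mt-Nd6 is the only mRNA of the minus strand (13552 to 14070), and its level was the highest of the 7 complex I subunits in both libraries and both quantifications. It had 37152 and 32048 expected counts, a level of 3090 and 3877 TPM (3483 ± 557, SD, n = 2), ranked 2 and 3 of 13, and read-based levels of 1122 and 1954 TPM, ranked 2 in both. On the log2 TPM scale it lay 1.81 and 1.47 above the median of the other 12 mRNAs, or 1.45 and 0.95 read-based. With copies added to those 12 the distance was 0.97 and 0.45. mt-Nd6 was above its plus-strand neighbours mt-Nd5 and mt-Cytb in both libraries and both quantifications. It overlaps mt-Nd5 by 14 bases. The plus-strand precursor crosses the mt-Nd6 gene, and strandedness is not given in the sources used here, so reads of mt-Nd6 and reads of the opposite strand cannot be told apart.

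Both rRNAs had a lower TPM than most of the mRNAs, and both were lower in replicate 2. mt-Rnr1, the small-subunit rRNA (70 to 1024, plus strand), had 11341 and 5763 expected counts, or 387 and 283 TPM. mt-Rnr2, the large-subunit rRNA (1094 to 2675), had 18807 and 5740, or 347 and 152 TPM. Together they came to 3.84% of the summed mRNA TPM in replicate 1 and 1.32% in replicate 2. The labels state that rRNA was depleted, and how far the probes covered the mitochondrial rRNAs is not given in the sources used here. The replicate ratio was −0.70 for mt-Rnr1 and −1.44 for mt-Rnr2, the opposite direction to mt-Nd1, the next mRNA on the same strand, and the read-based ratios were −0.92 and −1.94. mt-Rnr2 stood at 0.897 and 0.537 of mt-Rnr1 in TPM. Read-based it stood at 1.52 and 0.770, so the order of the pair in replicate 1 was set by the quantification.

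The tRNAs are the shortest members, with 59 to 75 bases, and they are the junctions at which the precursors are cut. All 22 had an effective length of 0 and a count of 0 in both alignment-based tables, which does not show that they were absent. In the read-based tables their effective length was 14.9 to 18.0 and 21 of 22 had reads in replicate 1 (mt-Tt, the threonine tRNA, had 0) and 22 in replicate 2. The 8 with the highest mean count are named. They were taken from the read-based tables after their values were seen, since the alignment-based tables gave no order. Their sequences are shown as 6 from the minus strand and then 2 from the plus strand. Capitals mark bases shared with another annotated mitochondrial gene, here the last 3 bases of mt-Ts1 with the end of mt-Co1 on the opposite strand.
mt-Ts1, chrM:6870-6938, minus strand: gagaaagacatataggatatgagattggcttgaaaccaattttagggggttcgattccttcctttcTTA
mt-Tc, chrM:5192-5257, minus strand: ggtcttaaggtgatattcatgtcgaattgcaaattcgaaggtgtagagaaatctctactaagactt
mt-Tp, chrM:15356-15422, minus strand: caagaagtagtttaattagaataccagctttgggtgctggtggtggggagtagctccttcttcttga
mt-Tn, chrM:5089-5159, minus strand: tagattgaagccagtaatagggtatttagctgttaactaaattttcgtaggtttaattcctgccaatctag
mt-Ty, chrM:5260-5326, minus strand: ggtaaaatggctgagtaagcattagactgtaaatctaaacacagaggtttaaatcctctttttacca
mt-Te, chrM:14071-14139, minus strand: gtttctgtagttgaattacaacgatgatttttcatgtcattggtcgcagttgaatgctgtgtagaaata
mt-Th, chrM:11546-11612, plus strand: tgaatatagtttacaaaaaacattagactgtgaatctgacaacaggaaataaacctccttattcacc
mt-Tr, chrM:9808-9875, plus strand: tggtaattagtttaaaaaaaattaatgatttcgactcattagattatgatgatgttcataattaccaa
mt-Ts1, a serine tRNA, had 744 read-based counts in replicate 1 and 254 in replicate 2. mt-Tc, the cysteine tRNA, had 103 and 289, and mt-Tp, the proline tRNA, had 197 and 154. mt-Tn (asparagine) had 53.0 and 195, mt-Ty (tyrosine) 34.0 and 142, and mt-Te (glutamate) 117 and 44.0. The highest tRNA differed between the libraries. On the plus strand, mt-Th (histidine) had 11.0 and 75.0 and mt-Tr (arginine) 1.00 and 59.0. mt-Ts1 and mt-Td lie between mt-Co1 and mt-Co2, mt-Tk between mt-Co2 and mt-Atp6, mt-Tg between mt-Co3 and mt-Nd3, and mt-Tr between mt-Nd3 and mt-Nd4l. These flanking mRNAs are all copied, mt-Co1 in part, in the run on chromosome 1. The copy search required 200 aligned bases, more than a tRNA has, so it could not report copies of tRNAs. Whether reads of these tRNAs also match chromosome 1 was not tested.

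Counts of tRNA genes divided by strand. The 8 on the minus strand summed to 1284 in replicate 1 (lowest 16, median 78.0, highest 744) and to 1124 in replicate 2 (15.0, 148 and 289). The 14 on the plus strand summed to 66.0 (0, 3.50 and 11.0) and to 364 (2.00, 19.0 and 75.0). In replicate 1 all 14 plus-strand tRNAs lay below the lowest minus-strand tRNA, and in replicate 2 the groups overlapped, with 6 of 14 below it. Of the 17 that averaged 10 read-based counts or more, 9 were plus-strand tRNAs, and all of these were higher in replicate 2. Their median log2 ratio was 2.64, and 7 were more than 2-fold higher, where 5.30% of all 24074 genes in the read-based comparison were. Most of these 9 had fewer than 10 counts in replicate 1, such as mt-Tr with 1.00 against 59.0 in replicate 2. They passed the cut on the mean through their replicate 2 counts, so this direction was partly set by the cut. The 8 minus-strand ones had a median of 0.21, with 3 past 2-fold upwards and 2 past it downwards (5.30% and 4.89% of all genes), from −1.63 (mt-Ts1) to 1.97 (mt-Ty). As for mt-Nd6, a tRNA gene's reads and those of the precursor of the opposite strand cannot be told apart without strand, and a fragment of a precursor that crosses a tRNA is not a mature tRNA.

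**Figure D4:**
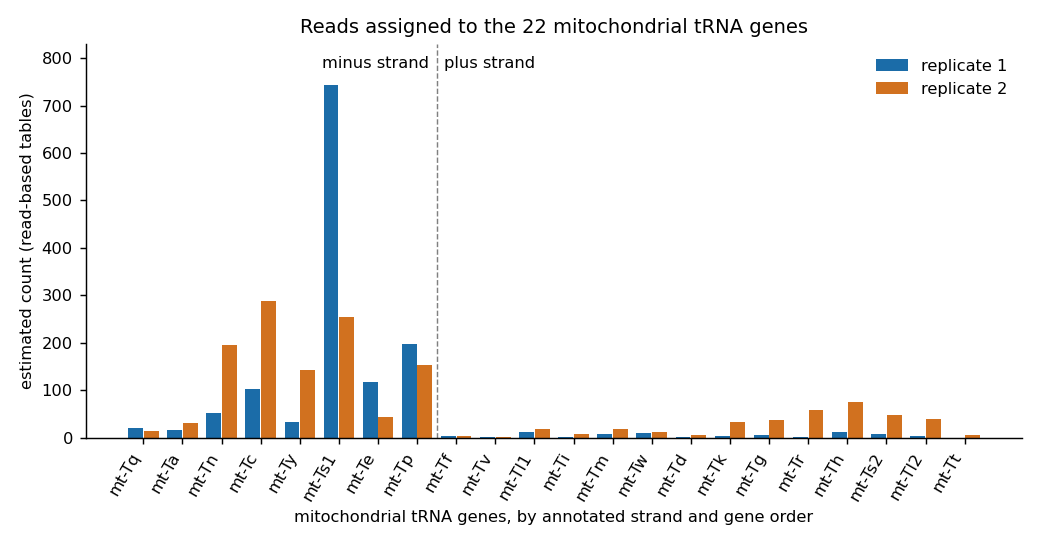
Read-based estimated counts (y axis, from 0) of the 22 tRNA genes (x axis), minus-strand genes left of the dashed line and plus-strand genes right of it, in replicate 1 and replicate 2. mt-Ts1 has 744 counts in replicate 1, no plus-strand tRNA exceeds 11.0 there, and mt-Th reaches 75.0 in replicate 2.

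The nuclear genes that serve the mitochondrial genome were examined as lists beside the members. Of 16 genes of its transcription and replication, 14 were detected, at far lower levels than the transcripts themselves. Mterf3, a factor of the mitochondrial transcription terminator family, was highest at 17 and 21.8 TPM, followed by Ssbp1, the single-stranded DNA binding protein (15.3 and 20.1), Polg, the catalytic subunit of the DNA polymerase (10.1 and 18.9), and Polrmt, the RNA polymerase (4.84 and 7.39). Mterf2 and Top1mt, the mitochondrial topoisomerase, were not detected in both libraries. Of 32 genes of RNA processing and stability, 31 were detected, led by Fastk (16.1 and 16.6), Pnpt1, a polynucleotide phosphorylase (16.1 and 16.2), Mtpap, the poly(A) polymerase (9.47 and 12.5), and Tbrg4 (9.14 and 12.6). Mettl15 was not. Their median replicate ratios were 0.05 (10 of 16 above 0) and 0.03 (18 of 32 above 0), with 0 members past 2-fold in either direction, where 3.08% of all genes were past it upwards and 5.40% downwards.

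All 46 nuclear-encoded subunits examined of complexes I, III, IV and V were detected. Their medians were 12.2 and 12.9 TPM and they summed to 713 and 712 TPM, while the 13 mitochondrial mRNAs summed to 19124 and 32913. Among the nuclear-encoded subunits, Atp5b, the catalytic beta subunit of ATP synthase, was the highest at 57.2 and 64.0 TPM. It was followed by Cox4i1 of complex IV (42.3 and 35.7), Cox7c of complex IV (32.7 and 37.4) and Atp5a1, the alpha subunit of ATP synthase (34.8 and 33.5). The median replicate ratio of these 46 was −0.30, with 7 of 46 above 0, 0 past 2-fold upwards and 1 downwards (Atp5k, −1.23), where 3.08% and 5.40% of all genes were. By complex the medians were −0.27 (I), −0.41 (III), −0.21 (IV) and −0.30 (V), and in TPM they were 0.05, 0.06, 0.04 and −0.11. Ndufa4 (−0.68) was counted under complex I here and not under complex IV. The median of the nuclear subunits of each complex thus lay below that of the nuclear protein-coding genes (0.01, and 0.24 in TPM), with single subunits above it, such as Uqcrb of complex III at 0.44. By contrast, the mitochondrial mRNAs of complexes I, III and V lay above it when read with their copies, by the least for mt-Nd6 (0.06, and 0.33 in TPM). The 10 cytoplasm-abundant mRNAs had a median of −0.40 (−0.15 in TPM), the macrophage markers −0.41 (−0.16 in TPM) and the 6 nuclear noncoding RNAs 0.10 (0.40 in TPM). Malat1 and Rn7sk, which hold most of the counts of that last list, were at −0.31 and −0.33. Replicate 2 had the higher mitochondrial mRNA share, the lower rRNA share, the lower cytoplasm-abundant mRNAs and the smaller starting amount at once, and the part of each of these in the other was not tested.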

How the data were processed

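Per the labels, the 2 libraries are ribosomal-RNA-depleted total RNA of 1 group. The authors deposited expected (estimated) counts, posterior mean counts and TPM per gene, derived per the deposited file descriptions from an alignment to the transcriptome of mm10 with GENCODE M21, and estimated counts and TPM per transcript derived directly from reads and an index. For quantifiers, aligner and strandedness, names and settings were not given in the sources used here. Members were matched by gene identifier, and each has 1 transcript. The members and gene lists were chosen with earlier results of these data known. The rule for named genes took all mRNAs, rRNAs and listed copies, the 8 tRNAs with the highest counts, and of each nuclear list the 4 highest in mean TPM, up to 4 undetected and up to 2 past 2-fold.

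Entries that name no gene held 1.06% and 0.245% of the deposited counts and were left out. Counts were rounded to whole numbers, scaled with edgeR 4.0.16 (R 4.3.3) TMM factors (genes averaging 10 counts or more), with 0.5 added before log2 ratios. The ratio script was checked on simulated data. No count model was fitted, because 2 libraries of 1 group allow no test. Copies were found with BLAST 2.17.0 among transcripts (at least 200 aligned bases at 90% identity). Other scalings, including DESeq2 1.42.0 size factors, filters, denominators and leaving out either replicate were tried. Every mRNA had at least 1077 counts in each library. The authors' posterior SD gives a further uncertainty, from assigning shared reads within the alignment-based quantification. It is largest for the 6 mRNAs copied on chromosome 1 over most of their length, and it does not cover the difference between the quantifications.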

Additional observations from a re-analysis of the deposited data

How the results depend on the processing

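The mRNA share of counts, 3.03% as the mean of both libraries, was 2.73% in the read-based tables and 3.62% without Malat1 and Rn7sk, and it moved by more than the spread between replicates to 4.04% of protein-coding counts and to 3.72% with the nuclear copies; either library alone gave 2.59% to 3.48%. The rRNA share, 0.0935%, moved to 0.136% read-based (0.0637% to 0.123% with either library alone), and the tRNA share moved from 0% to 0.00450%, since the alignment-based tables hold no tRNA reads. The median replicate ratio of the mRNAs, 0.62, was positive under every scaling tried: 0.78 with library totals (which move the median of nuclear protein-coding genes to 0.17), 0.87 in TPM (0.24 there), 0.57 read-based, 0.55 with posterior mean counts, and 0.31 as the ratio of totals with copies, in which mt-Co1 weighs most. The count more than 2-fold higher, 4, was 2 read-based, where 3.08% and 5.30% of all genes were. The count more than 2-fold lower, 1 (5.40% of all genes), was 0 in TPM, read-based and with each copy added. mt-Nd4l reversed from −1.25 to 0.93 read-based and to 0.80 with its copy. Between quantifications, the median of −0.19 was −1.27 in TPM (−0.26 to −0.12 with either library alone). The 4 mRNAs more than 2-fold apart, where 36.9% of all genes were higher and 0.455% lower, were 9 in TPM and 0 with copies added. The share of all genes in TPM was not computed, and the read-based TPM is on a scale of its own. The 9 is therefore not a result about these mRNAs. The distance of mt-Nd6 from the other mRNAs, 1.64, was 1.20 read-based, 0.71 with copies and 1.55 without mt-Atp8, mt-Nd3 and mt-Nd4l (1.47 to 1.81 with either library alone). Adding each copy to its gene, posterior mean counts and the omission of short mRNAs were chosen after seeing the data. No paired analysis was possible because there is 1 group.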
